A study of Mus musculus with 9 samples.

Results

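Fibroblasts cultured from arthritic ankles were compared with fibroblasts cultured from normal ankles in 6 of the 9 RNA-seq libraries of the series, chosen by their labels. The first 3 libraries were arthritis tissue-derived synovial fibroblasts (ADSF) from swollen ankles of C57BL/6 mice with collagen antibody-induced arthritis (CAIA), in which antibodies to type II collagen and then lipopolysaccharide are injected. The other 3 were normal tissue-derived synovial fibroblasts (NDSF) from C57BL/6 mice without arthritis. By the study's methods all mice were female, and by the labels all cultures were at passage 1. In both groups the fibroblasts were the collagenase-released cells that stuck to a collagen-coated dish and were then expanded in serum, so they are an adherent fraction and not a sorted cell type. The remaining 3 libraries of the series, macrophages of arthritic ankles (ADSM), entered only the estimate of the spread and the filter that removed genes with low values. The methods name a TruSeq kit for ADSF and a NEBNext directional kit for NDSF, whereas the labels give the TruSeq kit for both, so the library kit and the state of the ankle cannot be told apart. The study says that its cultures came from independent ankles and independent experiments, but no source used here ties a library to an ankle or an animal, so the p-values below rest on the spread between libraries. For each gene that spread was pooled over the 3 groups, with a macrophage library weighing as much as a fibroblast library.

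Synovial fibroblasts line the joint cavity and fill the tissue beneath it. They make the lubricant and hyaluronan of joint fluid and the matrix of the synovium, and in arthritis they are known to multiply, to invade cartilage and to send signals to leukocytes. A culture keeps some of these features and adds others, since fibroblasts on a stiff dish in serum take on contractile, wound-like traits.

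The libraries held 2580998 to 3220692 reads in ADSF and 3142495 to 3351184 in NDSF, counted over 23420 genes, and values are given as normalized reads (reads per gene divided by 1 factor per library, about 1 per read). The labelled cell type was checked by 14 genes of synovial fibroblasts, all of which had reads in each group and summed to 36461 to 43689.6 in ADSF and 36703 to 54391 in NDSF. NDSF library 3 stood apart from the other NDSF libraries. A chi-square of the reads over genes, per degree of freedom, was 1.71 between NDSF libraries 1 and 2 and 4.64 to 6.50 between ADSF libraries. Between ADSM libraries it was 2.33 to 6.06. Between NDSF library 3 and NDSF libraries 1 and 2 it was 21.0 and 16.5, and between NDSF library 3 and ADSF libraries 1, 2 and 3 it was 13.9, 16.3 and 18.3. Pearson's r of the log2 values, across genes, which are not independent replicates, was 0.9530 between NDSF library 3 and ADSF library 1, 0.9377 with ADSF library 2 and 0.9376 with ADSF library 3, against 0.9396 with NDSF library 1 and 0.9504 with NDSF library 2. By both measures the library nearest to NDSF library 3 was ADSF library 1. Counts of gene lists and the genes described in full are therefore given with all libraries and again without NDSF library 3. Every call named below was also made without this library, and among the named genes the groups overlapped only for Actg1, Cilp, Comp, Fos, Ifit1, Npr3, Nt5e, Pappa, Rgs4 and Top2a.

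Of 11889 tested genes, limma called 1175 higher in ADSF than in NDSF (9.88%) and 1343 lower (11.3%), with the adjusted p (Benjamini-Hochberg) required to be under 0.05. Of these, 350 were over 2-fold higher and 788 over 2-fold lower, and 15 and 123 passed 8-fold, so the large differences lay mostly on the lower side. The median log2 fold change of all tested genes was -0.0091. Differences are on the scale of log2(value + 1), which understates the change of genes with few reads, and each is given with its standard error (SE). Without NDSF library 3 the calls numbered 2169 higher (18.2%) and 2086 lower (17.5%), and 2442 of the 2518 original calls were among them, each in its original direction. Leaving out another fibroblast library cut the calls to 847 higher and 1168 lower (without ADSF library 1), 456 and 735 (without ADSF library 2), 532 and 765 (without ADSF library 3), 435 and 637 (without NDSF library 1) and 390 and 562 (without NDSF library 2). All 3 ADSF libraries lay above all 3 NDSF libraries for 2188 genes (18.4%) and below them for 2338 (19.7%), and 2399 of the 2518 called genes were among these.

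**Figure D1:**
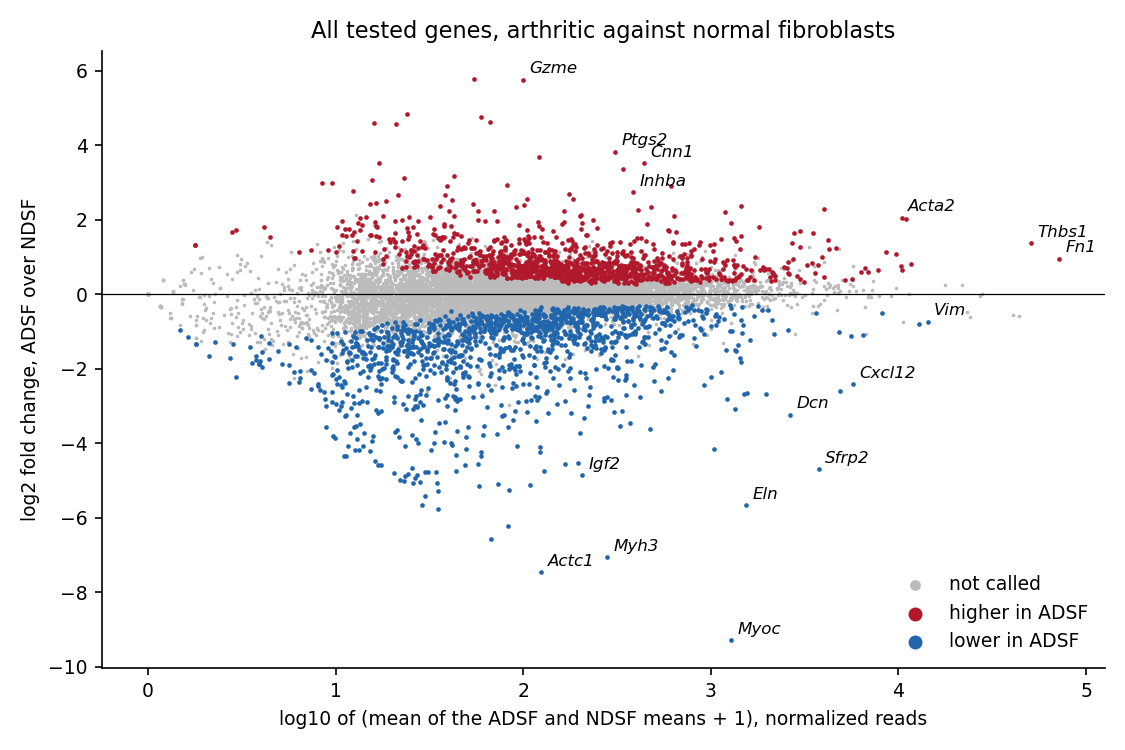
Log2 fold change of ADSF over NDSF (y axis) against the mean level (x axis, log10 of normalized reads + 1) for the 11889 tested genes, 1 point per gene, with calls in colour (red, 1175 higher in ADSF, blue, 1343 lower). The longest distances from 0 are below the line, with Myoc at -9.28 and Myh3 at -7.05, while Thbs1, Fn1 and Acta2 are called genes at the abundant end on the upper side.

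NDSF library 3 lay between the groups for most of the difference. On a scale set to 0 at the mean of NDSF libraries 1 and 2 and to 1 at the ADSF mean, its median position was 0.59 over the 4255 genes called without it, a set whose test did not use it, though the filter on low values did. It lay past the middle of this scale for 2561 of them, at or past the ADSF mean for 637 and at or below 0 for 318. The median was 0.66 for the genes higher in ADSF and 0.52 for those lower. Some gene groups described below were at the ADSF level in this library and others at the NDSF level.

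**Figure D2:**
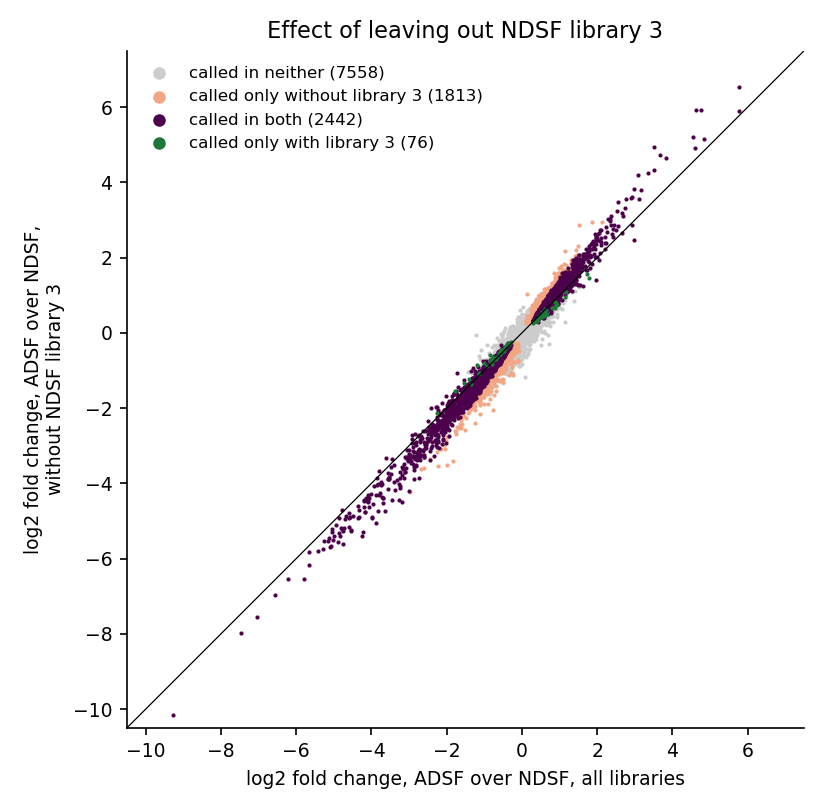
Log2 fold change of ADSF over NDSF without NDSF library 3 (y axis) against that with all libraries (x axis) for the 11889 tested genes, with the diagonal drawn. The 2442 genes called in both lie on one side of 0 together, most of them farther from 0 on the y axis, while 1813 were called only without the library and 76 only with it.

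Skeletal muscle genes were lower in ADSF, most of them by a wide margin. Of 29 muscle markers 25 were tested, and all 25 were lower in ADSF, with a median log2 fold change of -4.67 (-4.93 and again 25 without NDSF library 3). A gene was tested if its value reached 10 in at least 3 libraries, and 19 of the 25 were under 10 in each ADSF library, so they passed through NDSF and had to differ, and the count is no support for a list. With a minimum value of 50 the count was 15 of 15 tested. That filter too can be met through NDSF alone, so this count is no support either. Myh3, the myosin heavy chain of embryonic muscle, had 2.98, 4.98 and 1.202 in ADSF, against 806, 607 and 249 in NDSF. Myh3 differed by -7.05 ± 0.46 SE on the log2 scale (adjusted p = 3.45e-05), or by -7.55 without NDSF library 3. Actc1, cardiac alpha-actin, which developing skeletal muscle also makes, had 0.993, 0 and 0 in ADSF, against 345, 287 and 112 in NDSF. That is 1 read in all of ADSF against 781 in NDSF, a ratio of 655 with an exact 95% interval of 117 to 25888 that covers counting error only. Myod1, the transcription factor that commits cells to the muscle lineage, had no read in ADSF and 81.9, 61.9 and 23.5 in NDSF, at least 49.2-fold lower in ADSF against a floor of 3 reads in the group. The giant sarcomere protein titin (Ttn) had 2.98, 3.73 and 2.40 in ADSF, against 248, 138 and 104 in NDSF. Ttn differed by -5.26 ± 0.33 SE on the log2 scale (adjusted p = 3.38e-05), or by -5.54 without NDSF library 3. The myosin light chains Myl1 and Mylpf had log2 fold changes of -6.23 and -5.13. Of the 29 markers, 5 had no read in ADSF, Myod1 among them, and together they summed to 132 to 177 normalized reads in ADSF, against 4743, 3687 and 1886 in NDSF libraries 1, 2 and 3. In such bulk libraries fewer cells of a type and less RNA per cell cannot be told apart.

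Some markers of vessels, fat and nerve sheath were also lower in ADSF. Cdh5, the cadherin of endothelial junctions, had 2.98, 2.49 and 2.40 in ADSF, against 126, 90.9 and 31.9 in NDSF. Cdh5 differed by -4.33 ± 0.52 SE on the log2 scale (adjusted p = 0.000640), or by -4.90 without NDSF library 3. Of 5 tested endothelial genes 4 were lower, and again 4 without NDSF library 3, but all 4 were under 10 in each ADSF library, so their number is fixed in part by the filter. With a minimum value of 50, 1 endothelial gene was tested and it was not called. The 12 endothelial markers summed to 58.9 to 72.5 in ADSF and 182 to 549 in NDSF. The 11 adipocyte markers summed to 322 to 602 in ADSF and 1559 to 3465 in NDSF, and among 5 tested 2 were lower, with and without NDSF library 3, the fat cell regulator Cebpa and lipoprotein lipase (Lpl). Cebpa had 98.3, 64.7 and 55.3 in ADSF, against 468, 483 and 494 in NDSF. Cebpa differed by -2.75 ± 0.20 SE on the log2 scale (adjusted p = 4.52e-05), or by -2.73 without NDSF library 3. NDSF library 3 was at the level of its own group. Lpl had 85.4, 132 and 73.3 in ADSF, against 2698, 2463 and 751 in NDSF. Lpl differed by -4.17 ± 0.41 SE on the log2 scale (adjusted p = 0.000215), or by -4.77 without NDSF library 3. Of 4 tested Schwann cell markers 2 were lower, with and without NDSF library 3, and both were under 10 in each ADSF library. Erbb3, a receptor that Schwann cells need, was one of this pair, at 0.993, 1.24 and 1.202 in ADSF, against 19.3, 19.98 and 8.45 in NDSF. The 19 macrophage markers in the table summed to 1172 to 2134 in ADSF and 1233 to 2797 in NDSF, so the groups overlapped. Of 18 tested, 4 were lower in ADSF and none higher (8 without NDSF library 3, 6 by DESeq2 and none without ADSF library 1 or 2 or NDSF library 1 or 2 or with only the 6 fibroblast libraries in the model). None of the markers of lymphocytes, of neutrophils and mast cells, of epithelium or of red cells passed the filter, and no library had more than 23.01 for any of them. The part that other cells played in the differences reported below was not tested.

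**Figure D3:**
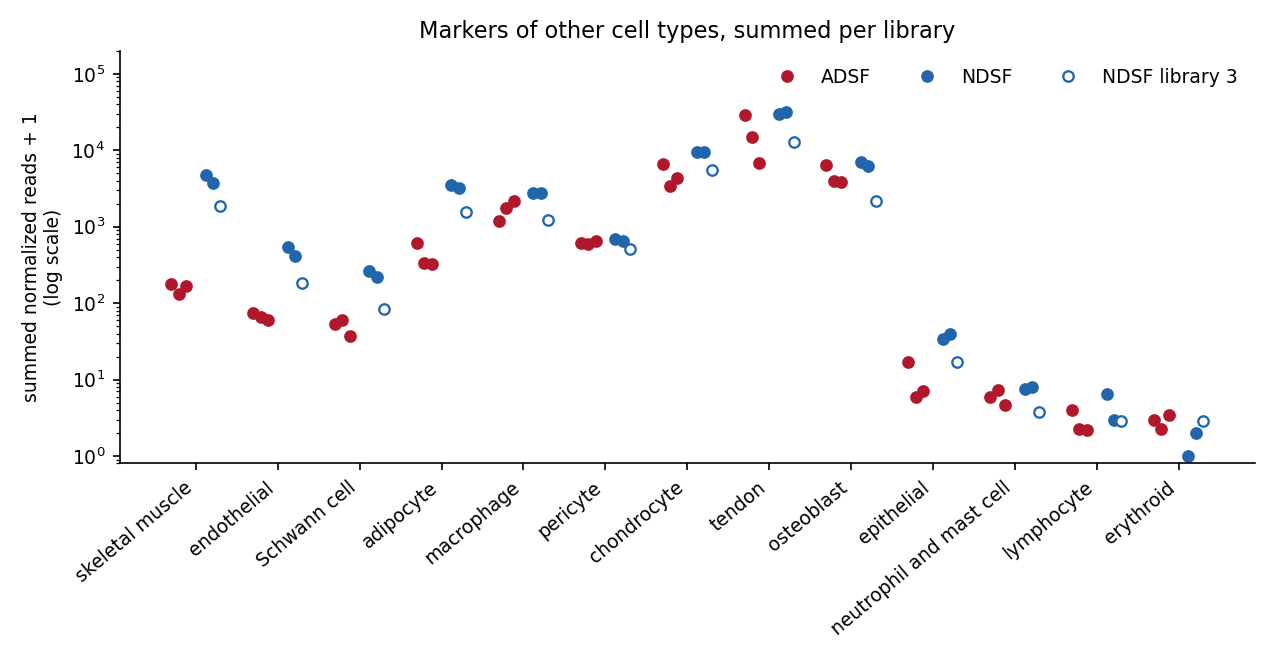
Summed normalized reads + 1 (y axis, log scale) of the markers of 13 other cell types (x axis) in each library, with ADSF in red, NDSF in blue and NDSF library 3 as an open circle. The muscle sums are 132 to 177 in ADSF and 1886 to 4743 in NDSF, and the macrophage sums overlap.

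Among lists with at least 5 tested genes, contractile genes had the largest share of higher calls. Of 20 smooth muscle and actomyosin genes, 12 were called higher and none lower, with a median log2 fold change of 1.14. The count was 16 without NDSF library 3, 8 without ADSF library 2 or 3 or NDSF library 1 and 7 without NDSF library 2, and the median without NDSF library 3 was 1.47. Lower calls numbered none without NDSF library 3 and 1 without ADSM library 3 or with a pseudocount of 5 or with only the 6 fibroblast libraries in the model or by edgeR or by DESeq2. Acta2, the smooth muscle actin that marks myofibroblasts, had 12837, 17812 and 17943 in ADSF, against 2242, 2918 and 8789 in NDSF. Acta2 differed by 2.05 ± 0.45 SE on the log2 scale (adjusted p = 0.0115), or by 2.65 without NDSF library 3. NDSF library 3 was high within its group here and still below each ADSF library. The call was lost without NDSF library 2 (adjusted p = 0.0567). Myl9, a regulatory light chain of non-muscle and smooth muscle myosin, had 1806, 2638 and 2481 in ADSF, against 245, 286 and 1195 in NDSF. Myl9 differed by 2.38 ± 0.49 SE on the log2 scale (adjusted p = 0.00850), or by 3.10 without NDSF library 3. Cnn1, or calponin, which binds actin and restrains myosin, had 557, 819 and 769 in ADSF, against 18.4, 26.0 and 451 in NDSF. Cnn1 differed by 3.51 ± 0.95 SE on the log2 scale (adjusted p = 0.0273), or by 4.95 without NDSF library 3. Its call was lost without ADSF library 1, 2 or 3 or NDSF library 1 or 2, with only the 6 fibroblast libraries in the model and by edgeR (adjusted p = 0.0532 to 0.114). Actg2, the actin of visceral smooth muscle, had 325, 657 and 802 in ADSF, against 26.7, 30.0 and 185 in NDSF. Actg2 differed by 3.36 ± 0.69 SE on the log2 scale (adjusted p = 0.00878), or by 4.25 without NDSF library 3. The same direction was called for tropomyosin 1 (Tpm1), at 5202, 6577 and 6656 in ADSF, against 1722, 1875 and 3360.1 in NDSF. Tpm1 differed by 1.46 ± 0.22 SE on the log2 scale (adjusted p = 0.00233), or by 1.76 without NDSF library 3. The actin crosslinkers Actn1 and Flna and the non-muscle myosin Myh9 had log2 fold changes of 1.27, 1.07 and 0.71. These 4 calls held without each single library. The cytoplasmic actins Actb and Actg1 had log2 fold changes of 0.65 and 0.75 (adjusted p = 0.0356 and 0.0426). The call of Actb was lost without ADSF library 2 or 3, NDSF library 1 or 2 or ADSM library 1 or 3 and with only the 6 fibroblast libraries in the model (adjusted p = 0.0528 to 0.139), and that of Actg1 was lost without ADSF library 1, 2 or 3, NDSF library 1 or 2 or ADSM library 1, 2 or 3, with only the 6 fibroblast libraries in the model, by edgeR and with the GC and length trend removed (adjusted p = 0.0554 to 0.162).

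Serum response factor drives many contractile genes through the CArG box, so the start regions of the called genes were searched for the strict form of this motif on both strands (the form is its own reverse complement). RefSeq start regions (250 bases before and 50 after the start, GRCm38.p6) were given for 10 of the 12 called contractile genes, and 2 of the 10 held the motif, as did 1 of the 7 contractile genes with a start region that were not called higher. It was in 1.63% of all 32851 start regions and in 1.57% of the 8897 tested genes that have one. The pair is shown because both genes were called higher, with the motif in capitals, for Myl9 on the plus strand at chr2:156775214-156775513 and for Vcl, which codes for the focal adhesion protein vinculin, on the plus strand at chr14:20929148-20929447.
Myl9: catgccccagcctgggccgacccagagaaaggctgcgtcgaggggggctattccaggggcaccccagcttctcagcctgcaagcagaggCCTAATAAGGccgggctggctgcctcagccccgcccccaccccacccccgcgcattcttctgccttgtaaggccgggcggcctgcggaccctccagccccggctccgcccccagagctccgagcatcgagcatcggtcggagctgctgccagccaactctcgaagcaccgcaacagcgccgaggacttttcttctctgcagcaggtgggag
Vcl: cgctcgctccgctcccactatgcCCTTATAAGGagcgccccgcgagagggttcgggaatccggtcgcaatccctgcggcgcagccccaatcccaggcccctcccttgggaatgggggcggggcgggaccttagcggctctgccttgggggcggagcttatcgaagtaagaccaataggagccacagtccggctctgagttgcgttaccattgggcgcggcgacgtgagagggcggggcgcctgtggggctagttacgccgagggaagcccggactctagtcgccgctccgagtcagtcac
The motif begins at base 90 of the Myl9 window and at base 24 of the Vcl window. Vcl had 2952, 3017 and 3397 in ADSF, against 1569, 1699 and 2659 in NDSF. Vcl differed by 0.70 ± 0.17 SE on the log2 scale (adjusted p = 0.0180), or by 0.93 without NDSF library 3. The call of Vcl was lost without ADSF library 2 or 3 or NDSF library 1 or 2 and with only the 6 fibroblast libraries in the model (adjusted p = 0.0543 to 0.0834). Absence of a match says only that the strict letters are not in this window.

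Adhesive matrix genes moved both ways, and thrombospondin 1 and fibronectin were among the higher ones. Of 17 matricellular genes 5 were higher and 4 lower. The higher ones numbered 6 without NDSF library 3, 3 without ADSF library 2 or NDSF library 1 or 2 or with a pseudocount of 0.5 and 2 without ADSF library 3. The lower ones numbered 4 without NDSF library 3 and 2 without ADSF library 2 or NDSF library 1 or 2. Thbs1, which codes for the matrix glycoprotein thrombospondin 1, had 76528, 70629.9 and 70824 in ADSF, against 21907, 25349 and 39783 in NDSF. Thbs1 differed by 1.37 ± 0.22 SE on the log2 scale (adjusted p = 0.00267), or by 1.62 without NDSF library 3. Fn1, the fibronectin gene and the most abundant transcript of each ADSF library, had 77025, 82004 and 125953 in ADSF, against 52959.7, 55797 and 37349.9 in NDSF. Fn1 differed by 0.95 ± 0.23 SE on the log2 scale (adjusted p = 0.0161), or by 0.77 without NDSF library 3. Its call was lost without ADSF library 3, with only the 6 fibroblast libraries in the model and with those 6 less NDSF library 3 (adjusted p = 0.0585 to 0.149). Within NDSF, library 3 was the highest in Thbs1 and the lowest in Fn1. Loxl2 and Loxl3 are lysyl oxidases, which crosslink collagen. Loxl2 had 1279, 1943 and 2649 in ADSF, against 345, 369.6 and 527 in NDSF. Loxl2 differed by 2.20 ± 0.29 SE on the log2 scale (adjusted p = 0.00109), or by 2.39 without NDSF library 3. Loxl3 had 1228, 1339 and 1141 in ADSF, against 537, 497 and 463 in NDSF. Loxl3 differed by 1.31 ± 0.15 SE on the log2 scale (adjusted p = 0.000421), or by 1.25 without NDSF library 3. The call of both held without each single library. Of 17 crosslinking genes 4 were higher and 2 lower, and Loxl1, a lysyl oxidase of elastic fibres, was among the lower with a log2 fold change of -0.52 that was lost without ADSF library 1, 2 or 3 or NDSF library 1 or 2 and with the GC and length trend removed (adjusted p = 0.0610 to 0.324). The higher genes numbered 6 without NDSF library 3 or with a pseudocount of 5 or by edgeR or by DESeq2, and 3 were lower without NDSF library 3 and none without any other fibroblast library. Of 26 collagen chains 3 were higher and 3 lower, a share near that of all genes. Among the 3 higher chains, 1 was under 10 in each NDSF library and met the filter only through other libraries. The higher ones numbered 3 without NDSF library 3 and 2 without ADSF library 1, NDSF library 1 or 2 or ADSM library 2 or with a pseudocount of 0.5 or with a minimum value of 50, and the lower ones 7 without NDSF library 3 or by DESeq2, 2 without ADSF library 2 or with a minimum value of 50, 1 without ADSF library 3 or NDSF library 1 and none without NDSF library 2. Col5a1, a chain of the minor fibril collagen V, had 12275, 15142 and 16832 in ADSF, against 7603, 8320.4 and 9452 in NDSF. Col5a1 differed by 0.80 ± 0.15 SE on the log2 scale (adjusted p = 0.00539), or by 0.88 without NDSF library 3. Col12a1, a collagen that sits on fibrils, differed by 0.64 on the log2 scale (adjusted p = 0.0436). The Col12a1 call was lost without ADSF library 1 or 2, NDSF library 1 or 2 or ADSM library 2, with a pseudocount of 0.5, with only the 6 fibroblast libraries in the model and with the GC and length trend removed (adjusted p = 0.0536 to 0.153). Col2a1, the main collagen of cartilage, was higher, at 1126, 584 and 1356 in ADSF, against 144, 191 and 412 in NDSF. Col2a1 differed by 2.09 ± 0.39 SE on the log2 scale (adjusted p = 0.00560), or by 2.53 without NDSF library 3. Of 9 chondrocyte genes it was the 1 called higher, and 4 were lower (4 without NDSF library 3, 2 without ADSF library 2 or NDSF library 1 or 2 or with the GC and length trend removed and 1 with a minimum value of 50). Among the lower ones Chad, which codes for the cartilage protein chondroadherin, had 0.993, 1.24 and 2.40 in ADSF, against 49.7, 52.9 and 11.3 in NDSF. Of the 4 lower chondrocyte genes, 2 were under 10 in each ADSF library and met the filter only through other libraries. Fbln2, a glycoprotein of the pericellular matrix, had 10969, 12332 and 12293 in ADSF, against 5180.4, 5721 and 5238 in NDSF. Fbln2 differed by 1.14 ± 0.18 SE on the log2 scale (adjusted p = 0.00243), or by 1.12 without NDSF library 3. NDSF library 3 was at the level of its own group.

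Decorin, lumican and other small leucine-rich proteoglycans were lower in ADSF, and so was elastin. These proteoglycans coat collagen fibrils and set their width. Of 11 tested, 6 were lower and none higher, with a median log2 fold change of -2.64 (-3.11, and again 6 genes, without NDSF library 3). Decorin (Dcn) had 339, 586 and 421 in ADSF, against 6943, 5878 and 1719 in NDSF. Dcn differed by -3.23 ± 0.47 SE on the log2 scale (adjusted p = 0.00189), or by -3.87 without NDSF library 3. Lumican (Lum) had 241, 301 and 221 in ADSF, against 3271, 2636 and 659 in NDSF. Lum differed by -2.82 ± 0.51 SE on the log2 scale (adjusted p = 0.00530), or by -3.54 without NDSF library 3. In both genes NDSF library 3 was the lowest of its group and still above each ADSF library. Ecm2, Omd and Aspn were lower by log2 fold changes of -4.54, -3.33 and -2.69, and each was also called with any single library left out. Elastin (Eln) had 127, 42.3 and 34.9 in ADSF, against 3167, 3403 and 2432 in NDSF. Eln differed by -5.67 ± 0.39 SE on the log2 scale (adjusted p = 3.90e-05), or by -5.81 without NDSF library 3. NDSF library 3 was close to its group. Of 17 elastic fibre genes 2 were higher (11.8%), Fbln2 among them, and 3 lower (17.6%), against 9.88% and 11.3% of all tested genes. The lower ones numbered 4 without NDSF library 3, 2 without ADSF library 2 or NDSF library 1 and 1 without NDSF library 2. Their count was also 2 with only the 6 fibroblast libraries in the model or with the GC and length trend removed. The higher elastic fibre genes numbered 2 without NDSF library 3 and 1 without ADSF library 1, 2 or 3, NDSF library 1 or 2 or ADSM library 3 or with a pseudocount of 0.5 or with no filter or with a minimum value of 50 or with upper-quartile scaling. The joint lubricant lubricin (Prg4) had 4803, 3286 and 4206 in ADSF, against 9499, 9922 and 7047 in NDSF. Prg4 differed by -1.11 ± 0.33 SE on the log2 scale (adjusted p = 0.0395), or by -1.26 without NDSF library 3. The call was lost without ADSF library 1, 2 or 3, NDSF library 1 or 2 or ADSM library 2 and with a pseudocount of 0.5 (adjusted p = 0.0544 to 0.139). The cartilage matrix proteins Comp and Cilp had log2 fold changes of -1.13 and -2.60, and for both the range of the ADSF libraries overlapped that of NDSF. The call of Comp was lost without ADSF library 2 or 3 or NDSF library 1 or 2, with only the 6 fibroblast libraries in the model and with the GC and length trend removed (adjusted p = 0.0551 to 0.101), and that of Cilp was lost without ADSF library 2 or 3 or NDSF library 1 or 2 and with only the 6 fibroblast libraries in the model (adjusted p = 0.0679 to 0.105).

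**Figure D4:**
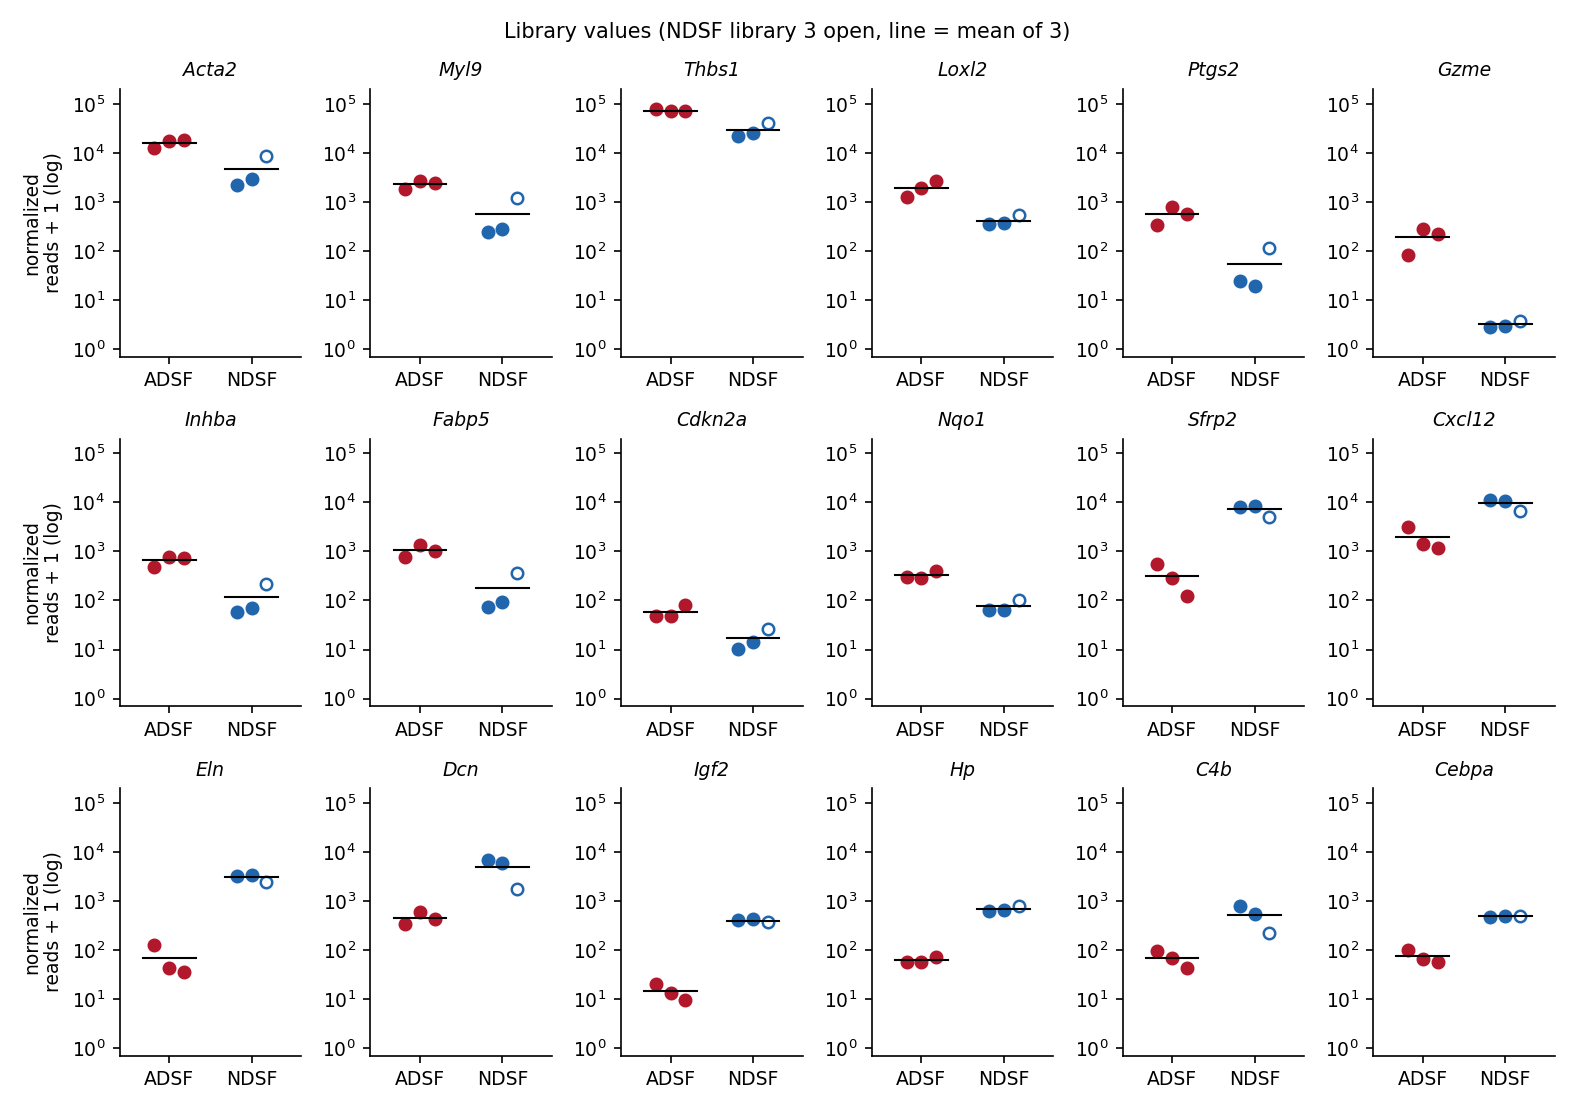
Normalized reads + 1 (y axis, log scale) of 18 genes in the 3 ADSF libraries (red, left) and the 3 NDSF libraries (blue, right), with NDSF library 3 open and the mean of each group as a line. In Acta2, Ptgs2 and Fabp5 NDSF library 3 lies toward ADSF, in Igf2, Hp and Cebpa it lies with its own group, and the groups do not overlap in any of the 18.

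Markers of the fibroblasts beneath the lining and around vessels were lower where they were called. Of 15 tested genes of progenitor-like fibroblasts around vessels 8 were lower and none higher, with a median log2 fold change of -1.36 (11 and -1.66 without NDSF library 3). The count was 6 to 8 without any 1 of the other libraries. Among the 8 lower genes, 1 was under 10 in each ADSF library and met the filter only through other libraries. Sfrp2, a secreted modulator of Wnt signals, had 551, 288 and 123 in ADSF, against 8021, 8552 and 5069 in NDSF. Sfrp2 differed by -4.70 ± 0.50 SE on the log2 scale (adjusted p = 0.000322), or by -4.94 without NDSF library 3. Cxcl12, the chemokine with which stromal cells hold leukocytes and progenitors, had 3134, 1446 and 1177 in ADSF, against 11299.5, 10651 and 6736 in NDSF. Cxcl12 differed by -2.42 ± 0.32 SE on the log2 scale (adjusted p = 0.00115), or by -2.65 without NDSF library 3. The stem and progenitor marker Cd34 had 70.5, 92.1 and 94.96 in ADSF, against 293, 249 and 150.2 in NDSF. Cd34 differed by -1.37 ± 0.27 SE on the log2 scale (adjusted p = 0.00665), or by -1.65 without NDSF library 3. Library 3 was the lowest of the NDSF libraries in Sfrp2, Cxcl12 and Cd34. Genes of the synovial lining went both ways, with 3 of 7 tested lower, 2 higher and a median log2 fold change of -0.88. Without NDSF library 3, 4 were lower and 2 higher, with a median of -1.20. With another fibroblast library left out, 1 or 2 were lower and 0 to 2 higher. One lining gene called lower, with all libraries, was under 10 in each ADSF library. Among 14 core synovial fibroblast genes 5 were lower and none higher (6 without NDSF library 3, 3 without ADSF library 3 or NDSF library 1 and 2 without NDSF library 2, for the lower ones). A single core gene was called higher without ADSM library 3, with a pseudocount of 5, with only the 6 fibroblast libraries in the model, by edgeR and by DESeq2. Fap, a membrane protease known from activated fibroblasts, had 25.8, 14.9 and 7.21 in ADSF, against 216, 221 and 48.8 in NDSF. Fap differed by -3.14 ± 0.61 SE on the log2 scale (adjusted p = 0.00690), or by -3.85 without NDSF library 3. Vim, the intermediate filament gene of mesenchymal cells, had 12351, 9203 and 10591 in ADSF, against 19334, 19506 and 14768 in NDSF. Vim differed by -0.74 ± 0.15 SE on the log2 scale (adjusted p = 0.00849), or by -0.87 without NDSF library 3. This call was lost with only the 6 fibroblast libraries in the model (adjusted p = 0.0576).

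Among transcription factors of mesenchymal cells the calls were also on the lower side. Of 27 tested, 11 were lower and none higher, among them Foxc1, Runx1 and Osr2, a factor of joint development. Foxc1 had 74.4, 36.1 and 50.5 in ADSF, against 247, 243 and 173 in NDSF. Foxc1 differed by -2.06 ± 0.30 SE on the log2 scale (adjusted p = 0.00190), or by -2.23 without NDSF library 3. Runx1 and Osr2 had log2 fold changes of -1.15 and -2.40. The count was 11 without NDSF library 3, 7 without ADSF library 1 or 3, 5 without NDSF library 1 and 4 without ADSF library 2 or NDSF library 2. Genes on the higher side numbered 2 without NDSF library 3 or with the GC and length trend removed and 1 without ADSM library 2 or 3 or with a pseudocount of 5 or with only the 6 fibroblast libraries in the model or by edgeR or by DESeq2. Of 7 Wnt antagonists 4 were lower (5 without NDSF library 3 and 2 without ADSF library 2 or NDSF library 1 or 2), Sfrp2 and the membrane inhibitor Apcdd1 among them. Apcdd1 had 21.8, 17.4 and 24.0 in ADSF, against 79.1, 66.9 and 61.0 in NDSF. Apcdd1 differed by -1.67 ± 0.31 SE on the log2 scale (adjusted p = 0.00588), or by -1.751 without NDSF library 3. Of 15 genes of the BMP axis, which directs bone and joint formation, 7 were lower and none higher (7 without NDSF library 3, 4 without ADSF library 2 or 3 or NDSF library 1 and 3 without NDSF library 2, for the lower ones, and 1 without NDSF library 3, for the higher ones). The BMP-related ligand Gdf10 had 13.9, 8.71 and 7.21 in ADSF, against 106, 97.9 and 37.5 in NDSF. Gdf10 differed by -2.81 ± 0.41 SE on the log2 scale (adjusted p = 0.00189), or by -3.28 without NDSF library 3. The BMP target Id2 had 134, 123 and 123 in ADSF, against 203, 208 and 189 in NDSF. Id2 differed by -0.65 ± 0.14 SE on the log2 scale (adjusted p = 0.00997), or by -0.70 without NDSF library 3. The call of Id2 was lost without NDSF library 2 (adjusted p = 0.0504). Among the 7 lower genes of the BMP axis, 1 was under 10 in each ADSF library and met the filter only through other libraries.

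Growth factor genes moved both ways. Inhba, the subunit of activin A, had 476, 762 and 716 in ADSF, against 58.0, 67.9 and 219 in NDSF. Inhba differed by 2.73 ± 0.52 SE on the log2 scale (adjusted p = 0.00635), or by 3.33 without NDSF library 3. Lrrc32, a surface protein that holds latent TGF-beta, was higher, at 1471, 1945 and 1611 in ADSF, against 537, 536 and 719 in NDSF. Lrrc32 differed by 1.49 ± 0.16 SE on the log2 scale (adjusted p = 0.000310), or by 1.63 without NDSF library 3. Tgfb1, the ligand itself, was lower, at 72.5, 77.2 and 66.1 in ADSF, against 237, 251 and 139.8 in NDSF. Tgfb1 differed by -1.48 ± 0.20 SE on the log2 scale (adjusted p = 0.00119), or by -1.748 without NDSF library 3. For Inhba, Lrrc32 and Tgfb1 library 3 lay on the ADSF side of its group. Of 15 genes of the TGF-beta axis 1 was higher and 5 lower (7 without NDSF library 3 and 3 without ADSF library 2 or NDSF library 1 or 2, for the lower ones). Its higher calls numbered 3 without NDSF library 3 or with a pseudocount of 5 or by edgeR and 2 without ADSM library 3 or with only the 6 fibroblast libraries in the model or by DESeq2. Among its 5 lower genes, 1 was under 10 in each ADSF library and met the filter only through other libraries. Igf2, a fetal growth factor expressed from the paternal allele, had 18.9, 12.4 and 8.41 in ADSF, against 398, 426 and 367 in NDSF. Igf2 differed by -4.87 ± 0.28 SE on the log2 scale (adjusted p = 3.38e-05), or by -4.92 without NDSF library 3. NDSF library 3 was with its group. Of 14 tested genes of the imprinted growth network, Igf2 included, 7 were lower and none higher (6 or 7 lower without each single ADSF or NDSF library). Higher calls in this network numbered 1 without NDSF library 3 or ADSM library 3 and 2 with a pseudocount of 5 or by edgeR or by DESeq2. H19, the maternally expressed RNA beside Igf2, had 78.4, 112 and 33.7 in ADSF, against 684, 673 and 1259 in NDSF. H19 differed by -3.62 ± 0.45 SE on the log2 scale (adjusted p = 0.000756), or by -3.33 without NDSF library 3. The cell cycle inhibitor Cdkn1c had 5.96, 1.24 and 4.81 in ADSF, against 97.6, 88.9 and 46.0 in NDSF. Cdkn1c differed by -4.05 ± 0.45 SE on the log2 scale (adjusted p = 0.000421), or by -4.39 without NDSF library 3. Within NDSF, H19 was highest and Cdkn1c lowest in library 3. Of the 7 lower genes of the imprinted network, 2 were under 10 in each ADSF library and met the filter only through other libraries. The mesenchymal vessel factor Angpt1 had 60.5, 28.6 and 56.5 in ADSF, against 188, 209.8 and 136 in NDSF. Angpt1 differed by -1.90 ± 0.31 SE on the log2 scale (adjusted p = 0.00303), or by -2.08 without NDSF library 3. In the VEGF, angiopoietin and PDGF list 7 of 17 were lower and 2 higher, the higher ones being Pdgfc and Vegfa. Pdgfc, a platelet-derived growth factor, had 126, 158 and 173 in ADSF, against 42.3, 51.9 and 88.2 in NDSF. Pdgfc differed by 1.37 ± 0.28 SE on the log2 scale (adjusted p = 0.00916), or by 1.67 without NDSF library 3. Vegfa, the main growth factor of vessels, had a log2 fold change of 0.77 that was lost without ADSF library 2 or 3 or NDSF library 1 or 2 and with only the 6 fibroblast libraries in the model (adjusted p = 0.0634 to 0.0942). Without NDSF library 3 the list had 9 lower and 3 higher, and with any 1 of the other libraries left out 5 to 8 lower and 1 to 3 higher. Of its 7 lower genes with all libraries, 2 were under 10 in each ADSF library and met the filter only through other libraries.

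Among inflammatory genes, both cyclooxygenases and 3 granzymes were higher in ADSF. Ptgs2, the inducible cyclooxygenase COX-2, had 342, 783 and 559 in ADSF, against 23.01, 17.98 and 115 in NDSF. Ptgs2 differed by 3.82 ± 0.57 SE on the log2 scale (adjusted p = 0.00203), or by 4.64 without NDSF library 3. Ptgs1, the constitutive form, had 111, 163 and 167 in ADSF, against 53.4, 50.9 and 65.7 in NDSF. Ptgs1 differed by 1.35 ± 0.32 SE on the log2 scale (adjusted p = 0.0169), or by 1.45 without NDSF library 3. The call of Ptgs1 was lost without ADSF library 2 or 3 or NDSF library 1 or 2 (adjusted p = 0.0614 to 0.0717), and that of Ptgs2 held without each library. Of 9 genes of prostaglandin synthesis and response these were the 2 called higher, and 2 were lower (4 higher and 2 lower without NDSF library 3). With another fibroblast library left out the higher ones numbered 1 or 2 and the lower ones 0 to 2. Granzymes are serine proteases of killer lymphocytes. Gzme had 81.4, 281 and 221 in ADSF, against 1.84, 2.00 and 2.82 in NDSF. Gzme differed by 5.76 ± 0.42 SE on the log2 scale (adjusted p = 4.52e-05), or by 5.89 without NDSF library 3. Here NDSF library 3 was at the level of its own group. Gzmd had 12.9, 89.6 and 34.9 in ADSF, against 0, 0 and 0.939 in NDSF. That is 114 reads in ADSF and 1 in NDSF, a ratio of 136. Its exact 95% interval of 23.9 to 5419 covers counting error only, not the spread between libraries. Gzmc had 39.7, 66.0 and 93.8 in ADSF, against 3.68, 4.99 and 20.6 in NDSF. Gzmc differed by 2.91 ± 0.53 SE on the log2 scale (adjusted p = 0.00532), or by 3.59 without NDSF library 3. These 3 were the tested members of a list of 11, and Gzmd and Gzme were under 10 in each NDSF library, so both passed the filter through ADSF and had to differ. With a minimum value of 50, the 1 granzyme tested was Gzme, which again passed through ADSF, and it was called higher. Gzmc was at least 10 in each ADSF library and, within NDSF, only in library 3. The genes lie in 1 cluster of near copies, so reads may have been split between them, and the lymphocyte markers summed to 1.202 to 2.98 in ADSF. Of 7 tested CXC and CX3C chemokines 2 were higher and 1 lower (3 and 2 without NDSF library 3). Of 5 CC chemokines none was higher and 1 lower (none and 3 without NDSF library 3). The lower one was under 10 in each ADSF library, so it met the filter only through other libraries. Among chemokines Ppbp, the platelet basic protein, had 39.7, 121 and 159 in ADSF, against 0, 0 and 3.75 in NDSF. Ppbp was under 10 in each NDSF library, so it met the filter only through other libraries. Ppbp differed by 5.78 ± 0.65 SE on the log2 scale (adjusted p = 0.000446), or by 6.53 without NDSF library 3. Of 12 genes of the interleukin-1 and TNF axis 2 were higher and none lower (4 and none without NDSF library 3). In the interleukin-6 family 1 of 10 was higher and 2 lower (3 and 3 without NDSF library 3). Its share of higher calls with all libraries was near the 9.88% of all tested genes. Il1rl1, the receptor for interleukin-33, was higher at 1517, 1831 and 1088 in ADSF, against 596, 748 and 417 in NDSF. Il1rl1 differed by 1.34 ± 0.22 SE on the log2 scale (adjusted p = 0.00330), or by 1.11 without NDSF library 3. Each ADSF library was above each NDSF library in Ppbp and Il1rl1.

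Acute phase and complement genes were mostly lower. Of 11 tested acute phase and innate defence genes 9 were lower and none higher, with a median log2 fold change of -1.99 (-2.00 without NDSF library 3). The count was 9 without NDSF library 3 and 6 without ADSF library 2 or 3 or NDSF library 1 or 2. Among the 9 lower genes, 1 was under 10 in each ADSF library and met the filter only through other libraries. Haptoglobin (Hp) had 54.6, 56.0 and 72.1 in ADSF, against 610.2, 647 and 768 in NDSF. Hp differed by -3.45 ± 0.40 SE on the log2 scale (adjusted p = 0.000526), or by -3.36 without NDSF library 3. Ceruloplasmin (Cp) had 13.9, 22.4 and 19.2 in ADSF, against 129, 102.9 and 109 in NDSF. Cp differed by -2.57 ± 0.22 SE on the log2 scale (adjusted p = 0.000101), or by -2.60 without NDSF library 3. In both genes NDSF library 3 lay within or above its group. Serum amyloid A3 (Saa3) had 4.96, 7.47 and 10.8 in ADSF, against 60.7, 45.9 and 75.1 in NDSF. Saa3 differed by -2.84 ± 0.48 SE on the log2 scale (adjusted p = 0.00351), or by -2.68 without NDSF library 3. The metalloreductase Steap4 had 15.9, 2.49 and 4.81 in ADSF, against 376, 315 and 54.4 in NDSF. Steap4 differed by -4.75 ± 0.72 SE on the log2 scale (adjusted p = 0.00227), or by -5.62 without NDSF library 3. Of 15 complement genes 8 were lower and 2 higher (9 without NDSF library 3 and 5 without ADSF library 3 or NDSF library 1 or 2, for the lower ones, and 2 without NDSF library 3 and 1 without ADSF library 3 or NDSF library 1 or 2, for the higher ones). C4b had 93.3, 66.0 and 40.9 in ADSF, against 799.7, 541 and 221 in NDSF. C4b differed by -2.84 ± 0.45 SE on the log2 scale (adjusted p = 0.00276), or by -3.36 without NDSF library 3. The protease C1s had 234, 179 and 192 in ADSF, against 1067, 919.9 and 412 in NDSF. C1s differed by -1.88 ± 0.31 SE on the log2 scale (adjusted p = 0.00318), or by -2.30 without NDSF library 3. Library 3 was the lowest NDSF library in both C4b and C1s. Cd59a, which blocks the membrane attack complex, was higher at 77.4, 64.7 and 139 in ADSF, against 12.9, 19.98 and 22.5 in NDSF. Cd59a differed by 2.24 ± 0.40 SE on the log2 scale (adjusted p = 0.00490), or by 2.40 without NDSF library 3. Of 15 genes that NF-kB induces or that feed back on it 4 were lower and none higher (7 without NDSF library 3 and 2 without ADSF library 1, 2 or 3 or NDSF library 1 or 2 or with only the 6 fibroblast libraries in the model). The adhesion molecule Icam1 had 46.7, 64.7 and 31.3 in ADSF, against 174, 159 and 109.8 in NDSF. Icam1 differed by -1.65 ± 0.26 SE on the log2 scale (adjusted p = 0.00288), or by -1.84 without NDSF library 3. Jund, a member of the AP-1 factors, had 72.5, 53.5 and 52.9 in ADSF, against 228, 229.7 and 238 in NDSF. Jund differed by -1.96 ± 0.19 SE on the log2 scale (adjusted p = 0.000200), or by -1.94 without NDSF library 3. Of 20 immediate early genes 7 were lower and none higher (7 without NDSF library 3 and 4 without ADSF library 1 or 2 or NDSF library 2, for the lower ones). The higher ones numbered 2 without NDSF library 3 and 1 with a pseudocount of 5. Of the 7 lower immediate early genes, 2 were under 10 in each ADSF library and met the filter only through other libraries.

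For interferon-stimulated and MHC class I genes the number of calls turned on NDSF library 3. Of 25 interferon-stimulated genes 8 were lower in ADSF and none higher, with a median log2 fold change of -1.84. The count was 23 without NDSF library 3, 18 by DESeq2, 14 by edgeR, 12 with a pseudocount of 5, 5 without ADSF library 1, 4 with only the 6 fibroblast libraries in the model, 3 without NDSF library 1, 2 without ADSF library 2 and 1 without NDSF library 2, and the median without NDSF library 3 was -2.50. The median position of NDSF library 3 over the list was 0.87 of the way to ADSF. Among the 8 lower genes, 1 was under 10 in each ADSF library and met the filter only through other libraries. Ifit1, which binds foreign RNA, had 20.8, 4.98 and 31.3 in ADSF, against 383, 341 and 23.5 in NDSF. Ifit1 differed by -3.19 ± 0.96 SE on the log2 scale (adjusted p = 0.0394), or by -4.49 without NDSF library 3. In this gene NDSF library 3 was inside the ADSF range, and the Ifit1 call was lost without ADSF library 1, 2 or 3, NDSF library 1 or 2 or ADSM library 1, 2 or 3 and with only the 6 fibroblast libraries in the model (adjusted p = 0.0515 to 0.153). The tetherin gene Bst2 kept the groups apart, at 37.7, 22.4 and 31.3 in ADSF, against 422, 216 and 69.5 in NDSF. Bst2 differed by -2.60 ± 0.53 SE on the log2 scale (adjusted p = 0.00880), or by -3.30 without NDSF library 3. Of 13 genes of MHC class I presentation 7 were lower (13 without NDSF library 3, 4 without ADSF library 2 or NDSF library 1 or with only the 6 fibroblast libraries in the model, 3 without NDSF library 2 and 2 without ADSF library 3), and the immunoproteasome subunit Psmb8 had 19.9, 14.9 and 26.4 in ADSF, against 81.9, 62.9 and 37.5 in NDSF. Psmb8 differed by -1.50 ± 0.28 SE on the log2 scale (adjusted p = 0.00612), or by -1.80 without NDSF library 3. The class I heavy chain H2-K1 had 354, 326 and 269 in ADSF, against 1210.2, 832 and 463 in NDSF. H2-K1 differed by -1.30 ± 0.29 SE on the log2 scale (adjusted p = 0.0115), or by -1.67 without NDSF library 3. The H2-K1 call was lost without ADSF library 3 or NDSF library 2 (adjusted p = 0.0503 to 0.0522), and its reads may be shared with near copies. Among the 7 lower genes of MHC class I presentation, 1 was under 10 in each ADSF library and met the filter only through other libraries.

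The number of cell cycle genes called higher turned on NDSF library 3, and with all libraries the share of mitosis genes was near that of all genes. Of 27 DNA replication genes 12 were higher and none lower, with a median log2 fold change of 0.78, and of 28 mitosis genes 3 were higher (median 0.57), which is 10.7% against 9.88% of all tested genes. For replication the count was 24 without NDSF library 3, 8 without ADSF library 1, 7 without ADSM library 1 or 3, 6 without ADSF library 3, 3 without NDSF library 1 or 2 or with only the 6 fibroblast libraries in the model and 2 without ADSF library 2. For mitosis it was 25 without NDSF library 3, 2 without NDSF library 1 or with only the 6 fibroblast libraries in the model and 1 without ADSF library 2 or NDSF library 2. The medians without NDSF library 3 were 1.09 and 0.96. The median position of NDSF library 3 was 0.86 for replication and 1.18 for mitosis, where it was past the ADSF mean. Uhrf1, which keeps DNA methylation in place as DNA is copied, had 282, 335 and 258 in ADSF, against 84.7, 118 and 187 in NDSF. Uhrf1 differed by 1.23 ± 0.23 SE on the log2 scale (adjusted p = 0.00626), or by 1.53 without NDSF library 3. Top2a, the topoisomerase of dividing cells, had 1235, 1461 and 919.6 in ADSF, against 450.0, 590.3 and 1355 in NDSF. Top2a differed by 0.73 on the log2 scale with all libraries (adjusted p = 0.145) and by 1.198 without NDSF library 3 (adjusted p = 0.00160).

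Genes that restrain the cell cycle moved both ways. Of 14 tested 6 were higher and 4 lower (7 and 4 without NDSF library 3, and 5 and 2 without any 1 of the other fibroblast libraries). Among the 6 higher genes, 1 was under 10 in each NDSF library and met the filter only through other libraries. Cdkn1a, the inhibitor p21, had 563, 657 and 879 in ADSF, against 302, 306 and 288 in NDSF. Cdkn1a differed by 1.201 ± 0.15 SE on the log2 scale (adjusted p = 0.000722), or by 1.18 without NDSF library 3. Ccng1 and Mdm2 had log2 fold changes of 1.22 and 0.90. Cdkn2a, the locus of the senescence-linked inhibitors p16 and ARF, had 47.6, 47.3 and 79.3 in ADSF, against 9.20, 13.0 and 25.3 in NDSF. Cdkn2a differed by 1.88 ± 0.37 SE on the log2 scale (adjusted p = 0.00722), or by 2.26 without NDSF library 3. On the lower side Cdkn1b, the quiescence inhibitor p27, had 116, 92.1 and 112 in ADSF, against 247, 222 and 206 in NDSF. Cdkn1b differed by -1.07 ± 0.16 SE on the log2 scale (adjusted p = 0.00190), or by -1.13 without NDSF library 3. Sesn1, a stress sensor, had 78.4, 48.5 and 81.7 in ADSF, against 294, 237 and 155 in NDSF. Sesn1 differed by -1.69 ± 0.25 SE on the log2 scale (adjusted p = 0.00196), or by -1.95 without NDSF library 3.

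In several metabolic lists more genes were called higher than lower, but not in lipid and retinoid handling or ER folding. Of 19 ER folding genes 1 was higher and 3 lower (5 and 3 without NDSF library 3). Of 24 cholesterol synthesis genes 2 were higher and none lower (3 and 1 without NDSF library 3). Of 23 genes of serine synthesis and the amino acid response 9 were higher and none lower (15 without NDSF library 3, 4 with only the 6 fibroblast libraries in the model, 2 without ADSF library 2 or 3 or NDSF library 1 and 1 without NDSF library 2), and Phgdh, the entry enzyme of serine synthesis, had 819.9, 1042 and 1071 in ADSF, against 263, 315 and 675 in NDSF. Phgdh differed by 1.34 ± 0.28 SE on the log2 scale (adjusted p = 0.00909), or by 1.751 without NDSF library 3. Of 16 antioxidant genes of the NRF2 pathway 6 were higher and 2 lower (7 higher and 4 lower without NDSF library 3, 5 and 1 without ADSF library 2 or 3, 5 and 0 without NDSF library 1, 4 and 0 without NDSF library 2, and 6 and 0 with only the 6 fibroblast libraries in the model). Nqo1, a quinone reductase, had 296, 289 and 401 in ADSF, against 62.6, 63.9 and 102 in NDSF. Nqo1 differed by 2.11 ± 0.24 SE on the log2 scale (adjusted p = 0.000534), or by 2.34 without NDSF library 3. Thioredoxin reductase (Txnrd1) had 587, 853 and 642 in ADSF, against 209.8, 239 and 396 in NDSF. Txnrd1 differed by 1.34 ± 0.22 SE on the log2 scale (adjusted p = 0.00315), or by 1.61 without NDSF library 3. Library 3 was the highest NDSF library in both Nqo1 and Txnrd1. The extracellular peroxidase Gpx3 was lower, at 1041, 761 and 133 in ADSF, against 4208, 4040.3 and 1680.1 in NDSF. Gpx3 differed by -2.69 ± 0.69 SE on the log2 scale (adjusted p = 0.0220), or by -3.12 without NDSF library 3. The call of Gpx3 was lost without NDSF library 1 or 2 and with only the 6 fibroblast libraries in the model (adjusted p = 0.0606 to 0.0889). Of 22 glycolysis genes 5 were higher and 1 lower (6 without NDSF library 3, 3 without ADSM library 1 or with the GC and length trend removed and 2 without ADSF library 2 or 3, NDSF library 1 or 2 or ADSM library 3 or with only the 6 fibroblast libraries in the model, for the higher ones, and 1 without NDSF library 3 and none without ADSF library 1 or 2 or NDSF library 1 or 2 or with only the 6 fibroblast libraries in the model or by DESeq2, for the lower one). Hexokinase 2 (Hk2) had 152, 239 and 206 in ADSF, against 82.8, 85.9 and 109 in NDSF. Hk2 differed by 1.08 ± 0.17 SE on the log2 scale (adjusted p = 0.00258), or by 1.202 without NDSF library 3. Of 25 TCA cycle and glutamine genes 7 were higher and 2 lower (8 without NDSF library 3, 3 without ADSF library 3 or NDSF library 2 and 2 without ADSF library 2 or NDSF library 1, for the higher ones). The lower ones numbered 2 without NDSF library 3, 3 with upper-quartile scaling or with the GC and length trend removed, 1 without ADSM library 3 or with only the 6 fibroblast libraries in the model and none without ADSF library 2 or 3 or NDSF library 1 or 2. Malate dehydrogenase (Mdh2) had 791, 906 and 791 in ADSF, against 375, 398 and 524 in NDSF. Mdh2 differed by 0.95 ± 0.14 SE on the log2 scale (adjusted p = 0.00225), or by 1.097 without NDSF library 3. In lipid and retinoid handling 4 of 19 were higher and 5 lower (4 and 8 without NDSF library 3). The fatty acid carrier Fabp5 had 774, 1327 and 1031 in ADSF, against 72.7, 91.9 and 360.4 in NDSF. Fabp5 differed by 2.92 ± 0.48 SE on the log2 scale (adjusted p = 0.00330), or by 3.62 without NDSF library 3. The fatty acid receptor Cd36 had 26.8, 24.9 and 25.2 in ADSF, against 273, 256 and 100.4 in NDSF. Cd36 differed by -2.85 ± 0.34 SE on the log2 scale (adjusted p = 0.000669), or by -3.32 without NDSF library 3. Aldh1a2, which makes retinoic acid, had 39.7, 68.5 and 42.1 in ADSF, against 725, 731 and 363 in NDSF. Aldh1a2 differed by -3.55 ± 0.36 SE on the log2 scale (adjusted p = 0.000246), or by -3.88 without NDSF library 3. Fabp5, Cd36 and Aldh1a2 all had library 3 on the ADSF side of the NDSF group. Another retinaldehyde dehydrogenase, Aldh1a3, went the other way, at 259, 269 and 209 in ADSF, against 39.6, 49.9 and 138 in NDSF. Aldh1a3 differed by 1.89 ± 0.43 SE on the log2 scale (adjusted p = 0.0137), or by 2.43 without NDSF library 3. The call of Aldh1a3 was lost without ADSF library 2 or NDSF library 1 or 2 (adjusted p = 0.0556 to 0.0659).

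**Figure D5:**
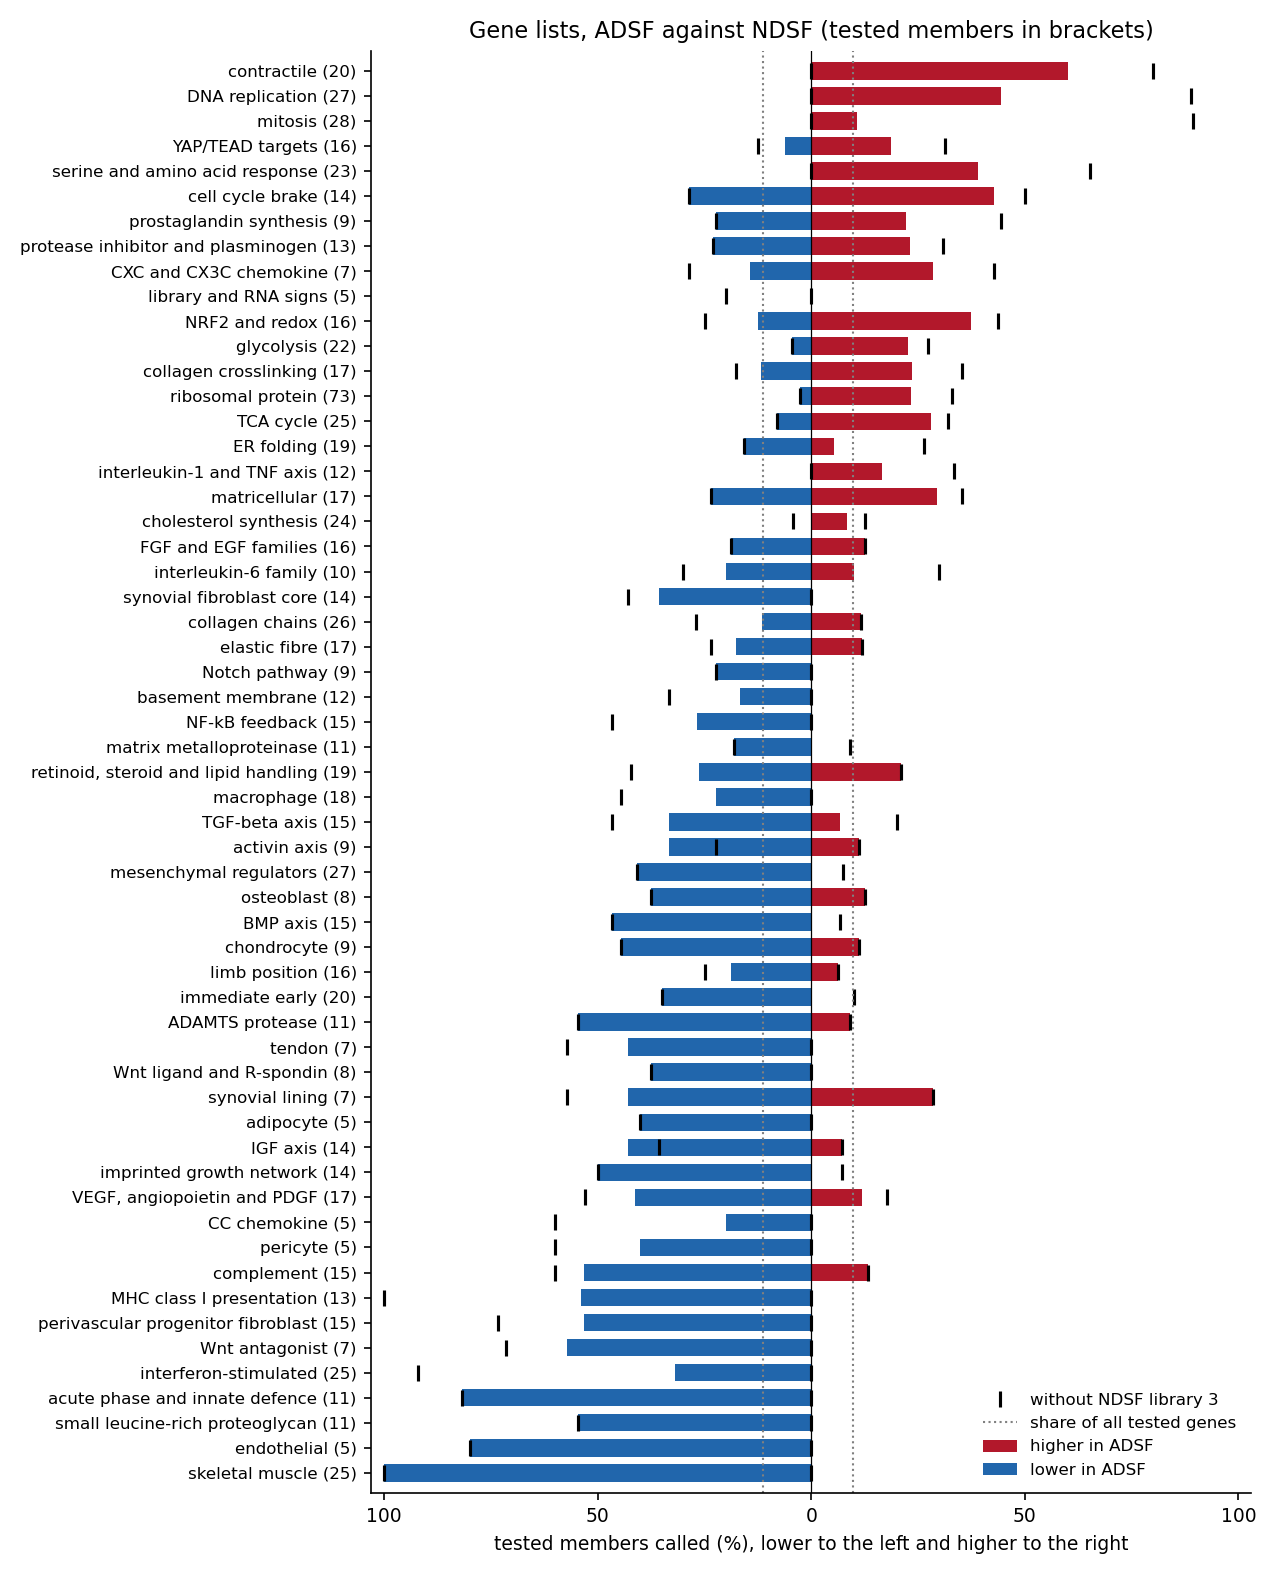
Share of the tested members of each gene list called higher (red, to the right) and lower (blue, to the left) in ADSF, in percent, for lists with at least 5 tested members, sorted by median log2 fold change. Black ticks give the shares without NDSF library 3 and dotted lines the 9.88% and 11.3% of all tested genes. The contractile list has 12 of 20 higher and the skeletal muscle list 25 of 25 lower, and the ticks lie far beyond the bars for mitosis, DNA replication and interferon-stimulated genes.

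Several of the largest differences belong to none of these lists. On the higher side Cdh3, the cell adhesion gene P-cadherin, had 122, 271 and 250.02 in ADSF, against 6.44, 6.99 and 65.7 in NDSF. Cdh3 differed by 3.68 ± 0.71 SE on the log2 scale (adjusted p = 0.00654), or by 4.72 without NDSF library 3. The vitamin D receptor gene Vdr had 181, 395 and 332 in ADSF, against 33.1, 31.96 and 77.9 in NDSF. Vdr differed by 2.69 ± 0.38 SE on the log2 scale (adjusted p = 0.00164), or by 3.10 without NDSF library 3. For Cdh3 and Vdr library 3 was the highest of NDSF. The glycosyltransferase Galnt18 and the chondroitin sulfotransferase Chst11 had log2 fold changes of 2.55 and 2.40. Atp12a, a proton pump subunit, had 175, 123 and 194 in ADSF, against 10.1, 17.98 and 99.5 in NDSF. Atp12a differed by 2.55 ± 0.64 SE on the log2 scale (adjusted p = 0.0195), or by 3.48 without NDSF library 3. The call of Atp12a was lost without ADSF library 1 or 3 or NDSF library 1 or 2, with only the 6 fibroblast libraries in the model, by edgeR and by DESeq2 (adjusted p = 0.0514 to 0.162). On the lower side Myoc, which codes for the secreted protein myocilin, had 11.9, 1.24 and 0 in ADSF, against 4244, 2884 and 571 in NDSF. Myoc differed by -9.28 ± 0.89 SE on the log2 scale (adjusted p = 0.000199), or by -10.15 without NDSF library 3, the largest of the named genes. Fgl2, a fibrinogen-like secreted protein, had 9.93, 11.2 and 9.62 in ADSF, against 463, 407 and 95.7 in NDSF. Fgl2 differed by -4.55 ± 0.50 SE on the log2 scale (adjusted p = 0.000382), or by -5.28 without NDSF library 3. Among abundant genes the ferritin heavy chain Fth1 had 3349.9, 3052 and 3034 in ADSF, against 7760.0, 7289 and 4565 in NDSF. Fth1 differed by -1.02 ± 0.20 SE on the log2 scale (adjusted p = 0.00635), or by -1.26 without NDSF library 3. The poly(A)-binding protein Pabpc1 had 2963, 2945 and 3004 in ADSF, against 4050.2, 4495 and 4206 in NDSF. Pabpc1 differed by -0.52 ± 0.10 SE on the log2 scale (adjusted p = 0.00617), or by -0.52 without NDSF library 3. The chaperone Hspa8 and the large scaffold gene Ahnak had log2 fold changes of 0.58 and -0.51. The call of Hspa8 was lost without ADSF library 2 or 3 or NDSF library 1 or 2 and with only the 6 fibroblast libraries in the model (adjusted p = 0.0654 to 0.109), and that of Ahnak was lost without ADSF library 2 or 3, NDSF library 1 or 2 or ADSM library 3 and with only the 6 fibroblast libraries in the model (adjusted p = 0.0507 to 0.126).

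NDSF library 3 also had features of its own. It was over 2-fold above both other NDSF libraries for 278 tested genes and over 2-fold below both for 594. The AP-1 gene Fos had 15.9, 41.1 and 12.02 in ADSF, against 23.9, 17.98 and 245 in NDSF. The calcium-linked signalling regulator Rgs4 had 74.4, 89.6 and 80.5 in ADSF, against 33.1, 46.9 and 256 in NDSF. In both it was above every other fibroblast library. Nt5e, which codes for the surface enzyme CD73, had 44.7, 24.9 and 25.2 in ADSF, against 182, 149 and 14.1 in NDSF, and here it was below all of them. In Npr3, the clearance receptor for natriuretic peptides, it was also highest, at 744, 580.0 and 619 in ADSF, against 179, 213 and 909 in NDSF. These values describe 1 library and carry no test.

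Of 5 tested genes of a list of library and RNA signs (long nuclear RNAs and histones) limma called none, with 1 at an unadjusted p under 0.05. DESeq2 called 1 higher and 1 lower, edgeR called none, and without NDSF library 3 limma called 1 lower. Another such gene, outside the list, differed. Rn45s, the precursor of ribosomal RNA, which has no poly(A) tail, had 1726, 1586 and 1921 in ADSF, against 3125, 3983 and 3082 in NDSF. Rn45s differed by -0.96 ± 0.12 SE on the log2 scale (adjusted p = 0.00104), or by -1.02 without NDSF library 3. The tested genes were cut by transcript GC content into 5 bins of about equal size. In order of rising GC, the median log2 fold change was -0.03, 0.021, 0.039, 0.017 and -0.11. Higher calls made up 5.52%, 9.79%, 11.8%, 14.1% and 8.27% of the bins in the same order. Lower calls made up 10.9%, 9.70%, 9.43%, 11.5% and 15.8%. Of 2402 called genes with a known GC content, 2078 were also called once the trend with GC content and length was removed. The part of the kit in the differences was not tested.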

How the data were processed

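RNA of 9 cultured synovial cell libraries (3 ADSF, 3 NDSF and 3 ADSM) was sequenced, and the submitters' processing notes name TopHat, Cufflinks and mm10. How reads were assigned to genes is not stated in what was read here. The deposited values are a signal, gene read counts that the authors divided by 1 TMM (trimmed mean of M values) factor per library. Each value was a whole multiple (within 0.001) of the value of 1 read, in 100% of values, so reads and depths were recovered. Columns were matched to libraries by cell type and number. Deposited tables of ADSM and ADSF only, and columns with the authors' own comparisons (fold changes, p- and q-values), were not used.

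A gene entered the test if its value reached 10 in 3 or more libraries. Tests were run on log2(value + 1) by limma 3.58.1 (R 4.3.3, trend) with 3 groups and Benjamini-Hochberg adjustment over all tested genes. Alternatives were other pseudocounts, filters and scalings, edgeR 4.0.16 (1155 higher, 1410 lower) and DESeq2 1.42.0 on recovered reads, a replicate block, a GC and length trend and leaving out each library. Genes were named by size of fold change, by abundance, by adjusted p within each list and by the distance of NDSF library 3 from the other NDSF libraries, while Aldh1a3, Aspn, Cd34, Cd59a, Cdkn2a, Mdm2, Myod1, Pappa, Pdgfc, Saa3, Vcl and Vegfa were chosen after their values were seen. The members and the gene lists were chosen with earlier results of these data known. Scripts were tested on simulated data. Start regions came from RefSeq (GRCm38.p6). Some genes are not reported here.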

Additional observations from a re-analysis of the deposited data

How the results depend on the processing

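The counts of calls depended on the libraries more than on the scaling. Without 1 library the genes called higher numbered 390 to 2169 and those called lower 562 to 2086, with the lowest counts without NDSF library 2 and the highest without NDSF library 3. With only the 6 fibroblast libraries in the model, 748 genes were called higher and 1006 lower. Of the 2518 calls of the main fit, 1610 were kept there in the same direction. With those 6 less NDSF library 3, an alternative chosen after seeing the data, 2144 were called higher and 2086 lower. The cause was not tested. Other pseudocounts, scalings, filters, count models (edgeR and DESeq2) and the removal of the GC and length trend kept both counts within 1.5 times, and calls on the higher side made up 39.9% with no filter and 52.3% with a minimum of 50, against 46.7%. With the replicate block 1033 genes were called higher and 1274 lower. Deviations of same-numbered ADSF and NDSF libraries correlated at 0.178, -0.140 and 0.006, so the numbers share only a name. No named call changed direction under these settings. Depth limits the genes with few reads, such as muscle genes in ADSF and granzymes in NDSF.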

Other observations

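Other gene groups held smaller or mixed differences. In the IGF axis 6 of 14 genes were lower and 1 higher (5 without NDSF library 3 and 4 without ADSF library 3 or NDSF library 1 or 2, for the lower ones, and 1 without NDSF library 3, 2 by DESeq2 and none without ADSF library 2 or 3 or NDSF library 1 or 2, for the higher one). Stc1, a secreted glycoprotein hormone, had 30.8, 47.3 and 24.0 in ADSF, against 170.3, 192 and 171 in NDSF. Stc1 differed by -2.40 ± 0.32 SE on the log2 scale (adjusted p = 0.00125), or by -2.43 without NDSF library 3. Pappa, the protease that frees IGF from its binding proteins, had 346, 698 and 839 in ADSF, against 156, 156 and 359 in NDSF. Pappa differed by 1.51 ± 0.37 SE on the log2 scale (adjusted p = 0.0187), or by 1.91 without NDSF library 3. The groups overlapped in Pappa, and its call was lost without ADSF library 2 or 3 or NDSF library 1 or 2 and with only the 6 fibroblast libraries in the model (adjusted p = 0.0582 to 0.0869). In the ADAMTS proteases 6 of 11 were lower and 1 higher (6 without NDSF library 3, 4 without ADSF library 1 or ADSM library 1 or 3, 3 with a minimum value of 50, 2 without ADSF library 2 or with only the 6 fibroblast libraries in the model and 1 without ADSF library 3 or NDSF library 1 or 2, for the lower ones, and 1 without NDSF library 3 and none without ADSF library 1, 2 or 3 or NDSF library 1 or 2, for the higher one), with Adamts9 at 29.8, 46.1 and 45.7 in ADSF, against 172, 163 and 240.3 in NDSF. Adamts9 differed by -2.22 ± 0.33 SE on the log2 scale (adjusted p = 0.00204), or by -2.05 without NDSF library 3. Of 11 matrix metalloproteinases 2 were lower and none higher (2 without NDSF library 3 and 1 without ADSF library 2 or 3 or NDSF library 1 or 2 or with a minimum value of 50 or with only the 6 fibroblast libraries in the model, for the lower ones, and 1 without NDSF library 3, for the higher ones). With all libraries the lower share was 18.2%, against 11.3% of all tested genes. The macrophage elastase Mmp12, among the lower ones, had 6.95, 6.22 and 4.81 in ADSF, against 40.5, 48.9 and 46.9 in NDSF. Mmp12 was under 10 in each ADSF library, so it met the filter only through other libraries. Mmp12 differed by -2.74 ± 0.27 SE on the log2 scale (adjusted p = 0.000217), or by -2.71 without NDSF library 3. Of 16 genes of limb position 3 were lower and 1 higher (4 without NDSF library 3, 2 with no filter or with a minimum value of 50 or by edgeR or by DESeq2 or with the GC and length trend removed and 1 without ADSF library 2 or 3 or NDSF library 1 or 2, for the lower ones, and 1 without NDSF library 3 and none without NDSF library 2 or with a minimum value of 50, for the higher one). With all libraries the limb position shares were 18.8% lower and 6.25% higher, against 11.3% and 9.88% of all tested genes. The hindlimb factor Pitx1 had 10.9, 21.2 and 32.5 in ADSF, against 63.5, 60.9 and 92.0 in NDSF. Pitx1 differed by -1.80 ± 0.37 SE on the log2 scale (adjusted p = 0.00846), or by -1.61 without NDSF library 3. The call of Pitx1 was lost with the GC and length trend removed (adjusted p = 0.122). Among the 3 lower genes of limb position, 1 was under 10 in each ADSF library and met the filter only through other libraries.

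Of 73 ribosomal protein genes 17 were higher and 2 lower (24 without NDSF library 3 and 6 without ADSF library 2 or 3 or NDSF library 1 or 2, for the higher ones, and 2 without NDSF library 3, 3 without ADSM library 2 or with only the 6 fibroblast libraries in the model or with upper-quartile scaling or with median-of-ratios scaling or by DESeq2 or with the GC and length trend removed and 1 without ADSF library 1, 2 or 3, NDSF library 1 or 2 or ADSM library 3 or by edgeR, for the lower ones), with a median log2 fold change of 0.18.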
